A study of Mus musculus with 5 samples.

Results

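The core genes of the circadian clock were measured in neural stem and precursor cells grown from the adult mouse subventricular zone (SVZ), the tissue beside the lateral ventricles of the forebrain in which neural stem cells persist. The group holds 9 of the 46078 genes in the table of each library and was chosen by gene name. It comprises 3 activators (Arntl, Clock and Npas2) and 6 repressors (Per1, Per2, Per3, Cry1, Cry2 and Ciart). All 9 had a row in every table and a mean of at least 1 TPM (a gene's share of all transcripts, corrected for gene length and for library size), so every member entered the test. RNA was sequenced in 5 libraries, 2 collected 1 h and 3 collected 8 h after a sham exposure in which PBS was added to the medium. The comparison of 8 h with 1 h asked how expression moved with time after this sham exposure. The labels give all libraries the same background, namely female C57BL/6 mice aged 5 to 8 weeks with no mutation, and the study's methods give a higher age. The cells had been expanded as spheres with EGF and FGF and plated on poly-D-lysine (PDL) before PBS was added, and the methods define 1 replicate of SVZ cells as 1 animal. Libraries of cells given hydrogen peroxide were not analysed here.

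The clock is a feedback loop of transcription that runs in nearly every cell. BMAL1, the product of Arntl, pairs with CLOCK or its relative NPAS2 and binds E-boxes (the letters CACGTG and close variants) in the promoters of the Per and Cry genes and of Ciart. The PER and CRY proteins then enter the nucleus and block this pair, and CIART (also named CHRONO) binds BMAL1 and represses it as well. Side loops are formed by REV-ERB and ROR proteins, which act on ROR elements such as those of Arntl, and by the factors DBP, TEF, HLF and NFIL3, which act on D-boxes. In a rhythmic tissue Arntl transcripts usually peak when those of the Per genes are low.

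Some libraries went against their labels, and this bears on every comparison that follows. All 5 are labelled female. Both 1 h libraries and 8 h replicate 14 had 0.0285 to 0.0611 TPM of Xist, the transcript of the inactive X chromosome, and 138 to 181 TPM summed over 4 genes of the Y chromosome (Ddx3y, Eif2s3y, Kdm5d and Uty). In 8 h replicates 13 and 15 Xist stood at 165 and 200 TPM, and the Y genes summed to 0.0253 and 0 TPM. The library identifiers in the labels split the libraries in the same way, into series 1 (both 1 h libraries and 8 h replicate 14) and series 2 (8 h replicates 13 and 15). At 8 h the count columns that carry these identifiers did not match the libraries of the same name (below). The series is therefore taken from the labels, and which identifier belongs to 8 h replicate 14 is uncertain. The share of TPM from mitochondrial genes was 10.7% to 11.1% in series 1 and 6.23% and 6.30% in series 2. All 8 markers of neural stem and precursor cells were expressed at a mean of at least 1 TPM, with sums of 11087 to 11616 TPM at 1 h and 11065 to 14240 TPM at 8 h. Neither the meaning of these series nor the time of day of collection was stated in the sources used here. Since series 2 holds no 1 h library, time and series are partly confounded, and every member is also given from a fit that holds the series as a term, which sets 8 h replicate 14 against the 1 h libraries.

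Between 1 h and 8 h the activators and most repressors stood on opposite sides. All 3 activators had higher TPM in each 8 h library than in either 1 h library, as did 23.7% of all genes tested. Of the 6 repressors, 5 had lower TPM in each 8 h library than in either 1 h library, against 9.43% of all genes. Cry1 was the exception. Mean levels were 1.46-fold to 2.47-fold higher at 8 h for the activators and 1.55-fold to 2.94-fold lower for the 5 repressors. None of the 9 passed the threshold of the test (limma on log2(TPM + 1), an adjusted p over all genes of 0.05 or less and an absolute log2 change above 1), and the adjusted p-values ran from 0.214 to 0.462. In bulk RNA of this kind, fewer cells of a type and less RNA per cell cannot be told apart.

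Arntl (ENSMUSG00000055116, chromosome 7, 113207465 to 113314122, plus strand, GRCm38) encodes BMAL1, the partner that both CLOCK and NPAS2 need. Its TPM was 29.4 and 24.3 at 1 h (replicates 1 and 2, in this order for all genes) and 51.4, 34.0 and 47.9 at 8 h (replicates 13, 14 and 15, likewise). The groups did not overlap, and 8 h replicate 14 lay nearest to the 1 h libraries. The log2 change was 0.69 ± 0.20 (SE, adjusted p = 0.337 in limma), and 0.33 ± 0.15 with the series as a term (adjusted p = 0.589).

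Clock (ENSMUSG00000029238, chromosome 5, 76209868 to 76304792, minus strand) encodes the partner of BMAL1 that also acetylates histones. Its TPM was 27.7 and 18.3 at 1 h and 34.2, 29.8 and 36.6 at 8 h. The gap between the groups was small, since 1 h replicate 1 came close to 8 h replicate 14. The log2 change was 0.55 ± 0.20 (adjusted p = 0.381 in limma), and 0.39 ± 0.24 with the series as a term.

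Npas2 (ENSMUSG00000026077, chromosome 1, 39193731 to 39363236, plus strand) encodes the relative of CLOCK that can replace it in the forebrain. It was the lowest member at 1 h, with a TPM of 1.64 and 1.43, against 4.38, 2.46 and 4.52 at 8 h. The mean was 2.47-fold higher at 8 h, the largest ratio among the activators, and 8 h replicate 14 lay 1.60-fold above the 1 h mean. The log2 change was 0.89 ± 0.26 (adjusted p = 0.334 in limma), and 0.45 ± 0.19 with the series as a term. At levels this low the pseudocount of 1 shrinks the log2 value, which was 1.20 with a pseudocount of 0.1.

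**Figure D1:**
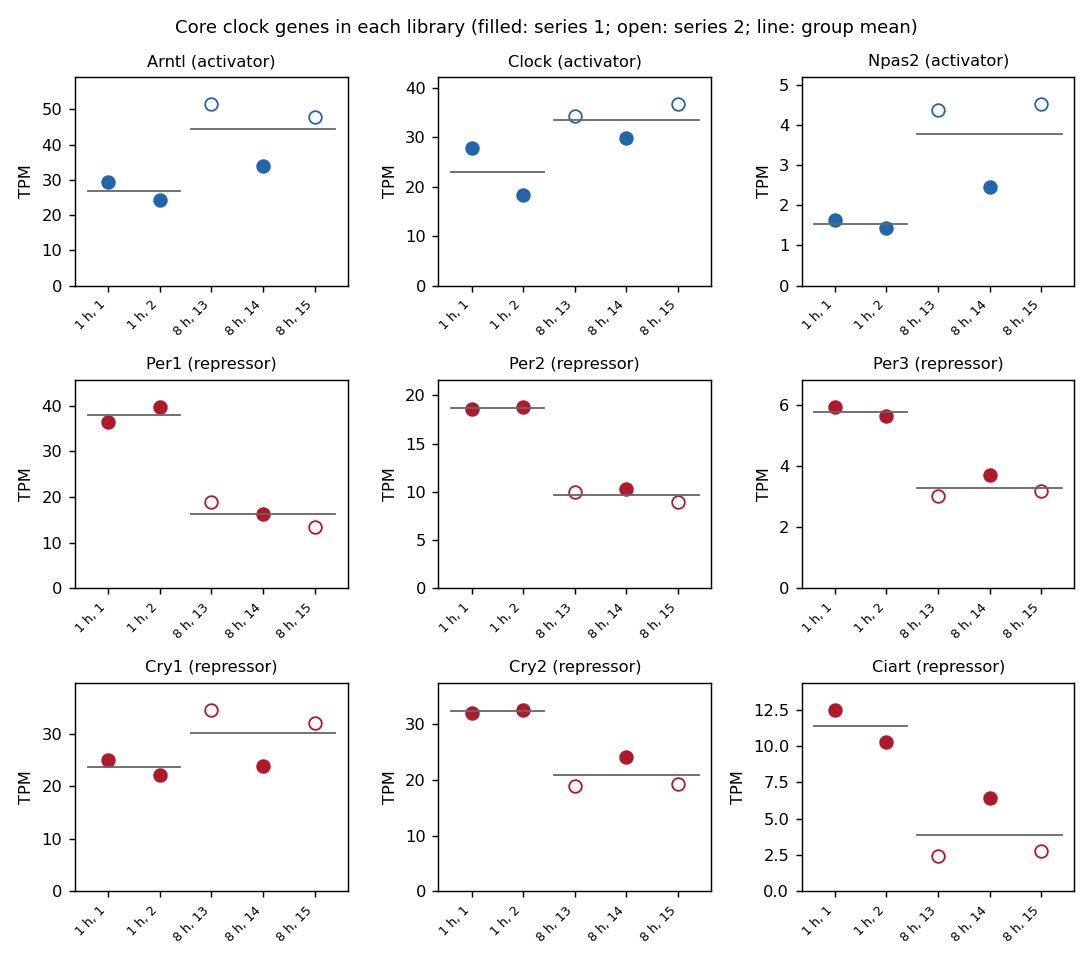
TPM (vertical axes, from 0) of the 9 core clock genes in each library (horizontal axes: time and replicate number), with activators in blue and repressors in red. Filled points are libraries of identifier series 1, open points those of series 2, and lines mark group means. The activators are higher and all repressors except Cry1 lower in the 3 libraries at 8 h than in the 2 at 1 h.

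The promoters of the repressors were searched for the sites through which the loop acts. RefSeq start sites on GRCm38.p6 were used, with 250 bases before and 50 bases after each start, and 8 of 9 members had at least 1 start in the table (12 windows), all except Per2. Both strands were searched for the E-box CACGTG, its variant CACGTT (the E′-box), the D-box TTANGTAA, the core of the ROR element AGGTCA and the cyclic AMP response element TGACGTCA. The E-box was found in Ciart, Cry1 and Per1, against 7.15% of all 32851 windows. The Ciart window held 3 E-boxes, 116, 58 and 44 bases before its start, and 29 windows in all (0.0883%) held 3 or more. The E′-box was found in Cry1 (79 bases before the start, beside an E-box at 60) and in Cry2 (166 bases before), against 4.68% of all windows. Per3 held 2 D-boxes, 205 and 158 bases before its start, against 2.32% of all windows with at least 1. The AGGTCA core, present in 16.3% of all windows, was found at 1 start each of Arntl, Clock and Per1. The cyclic AMP response element was found in 0 of the 12 windows, against 1.79% of all windows, and no motif was found at the Npas2 start. A match is a description of the letters and not a bound site. The 250 bases before the start of 4 repressors are shown because they hold these sites, 5′ to 3′ on the strand of the gene, with E-boxes, the E′-box of Cry1 (read there on the opposite strand) and the D-boxes of Per3 in capitals. The Ciart stretch is chr3:95882229-95882478 (minus strand), that of Per3 chr4:151044666-151044915 (minus strand), that of Cry1 chr10:85185055-85185304 (minus strand) and that of Per1 chr11:69098699-69098948 (plus strand), the last lying within longer annotated Per1 transcripts.
Ciart: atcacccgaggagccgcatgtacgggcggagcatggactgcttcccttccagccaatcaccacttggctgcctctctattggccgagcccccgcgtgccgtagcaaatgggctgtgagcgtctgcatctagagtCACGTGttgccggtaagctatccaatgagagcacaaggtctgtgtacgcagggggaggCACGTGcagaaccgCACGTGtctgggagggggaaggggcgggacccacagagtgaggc
Per3: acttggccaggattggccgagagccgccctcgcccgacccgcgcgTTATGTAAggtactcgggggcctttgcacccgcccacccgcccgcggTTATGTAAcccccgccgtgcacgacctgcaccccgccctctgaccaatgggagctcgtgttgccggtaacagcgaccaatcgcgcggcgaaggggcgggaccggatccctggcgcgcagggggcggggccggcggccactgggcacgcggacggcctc
Cry1: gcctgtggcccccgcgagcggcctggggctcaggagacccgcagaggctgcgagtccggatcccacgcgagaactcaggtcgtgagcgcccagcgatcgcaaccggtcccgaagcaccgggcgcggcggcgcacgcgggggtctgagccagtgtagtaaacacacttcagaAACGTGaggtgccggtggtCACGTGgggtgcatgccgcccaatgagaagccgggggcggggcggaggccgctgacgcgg
Per1: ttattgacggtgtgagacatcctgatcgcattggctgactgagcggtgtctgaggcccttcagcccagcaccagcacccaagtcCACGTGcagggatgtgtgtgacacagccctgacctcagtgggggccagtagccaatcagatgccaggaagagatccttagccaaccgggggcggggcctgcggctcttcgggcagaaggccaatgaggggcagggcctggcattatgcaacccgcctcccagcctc

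**Figure D2:**
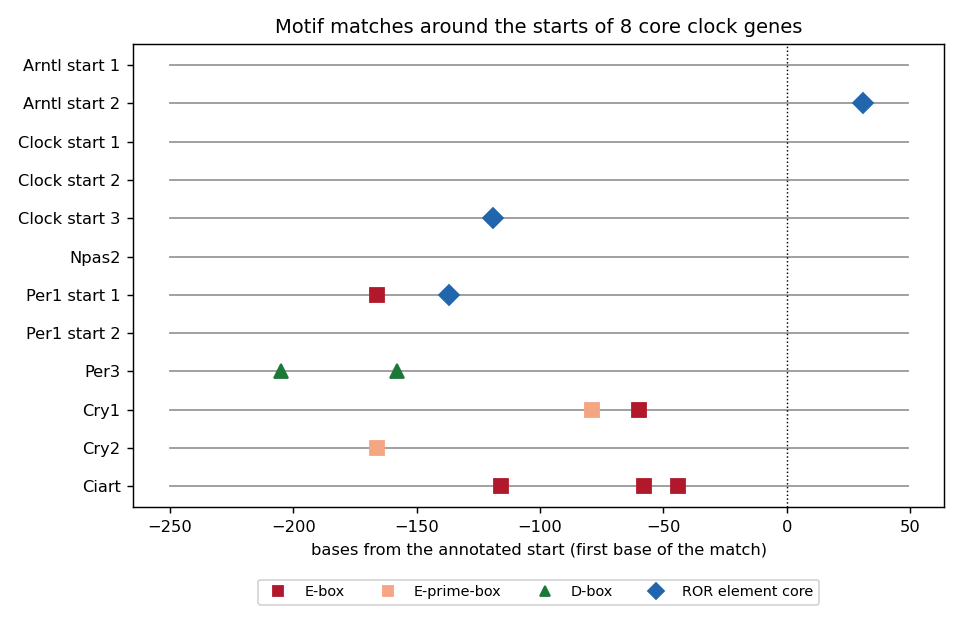
Positions of motif matches (horizontal axis: bases from the annotated start, first base of the match) in the 12 RefSeq windows of 8 core clock genes (vertical axis). Squares are E-boxes (dark) and E′-boxes (light), triangles D-boxes and diamonds ROR element cores. Ciart carries 3 E-boxes, Per3 carries 2 D-boxes, and the repressors hold all E-box and E′-box matches.

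Per1 (ENSMUSG00000020893, chromosome 11, 69095217 to 69109960, plus strand) encodes a PER protein and is also known as a gene that answers quickly to signals from outside the cell. Its TPM was 36.4 and 39.7 at 1 h and 18.9, 16.4 and 13.5 at 8 h. All 3 libraries at 8 h lay far below both at 1 h, and 8 h replicate 14 sat among the other 8 h libraries and not near the 1 h group. The mean was 2.34-fold lower at 8 h, with a log2 change of -1.19 ± 0.16 (95% interval -1.58 to -0.79, adjusted p = 0.214 in limma). Of all 13870 genes tested, 20 (0.144%) had a smaller unadjusted p than Per1, and 115 (0.829%) had a larger absolute log2 change. With the series as a term the change was -1.17 ± 0.21 (adjusted p = 0.238), nearly the same size.

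Per2 (ENSMUSG00000055866, chromosome 1, 91415982 to 91459324, minus strand) encodes the PER protein that, with PER1, carries the repression. Its TPM was 18.6 and 18.8 at 1 h and 9.98, 10.3 and 8.94 at 8 h. The values within a group lay close together and the groups were well apart, with a mean 1.92-fold lower at 8 h. The log2 change was -0.88 ± 0.13 (95% interval -1.19 to -0.57, adjusted p = 0.240 in limma), and -0.80 ± 0.14 with the series as a term (adjusted p = 0.232). The ratio of Per1 to Per2 was 1.96 and 2.11 at 1 h and 1.89, 1.60 and 1.51 at 8 h.

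Per3 (ENSMUSG00000028957, chromosome 4, 151003652 to 151044665, minus strand) encodes the third PER protein, which is not needed for the rhythm itself. Its TPM was 5.92 and 5.63 at 1 h and 3.02, 3.69 and 3.17 at 8 h. The groups did not overlap, and the mean was 1.75-fold lower at 8 h. The log2 change was -0.66 ± 0.16 (adjusted p = 0.296 in limma), and -0.53 ± 0.17 with the series as a term.

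The Cry genes, which encode the cryptochromes that bind PER and block the activators, did not move together. Cry2 (ENSMUSG00000068742, chromosome 2, 92403646 to 92434043, minus strand) had a TPM of 32.0 and 32.4 at 1 h and of 18.9, 24.1 and 19.3 at 8 h, with no overlap and a mean 1.55-fold lower at 8 h. Its log2 change was -0.62 ± 0.14 (adjusted p = 0.287 in limma), and -0.40 ± 0.12 with the series as a term. Cry1 (ENSMUSG00000020038, chromosome 10, 85131702 to 85185054, minus strand) had a TPM of 25.1 and 22.1 at 1 h and of 34.4, 23.8 and 32.0 at 8 h. Its groups overlapped, because 8 h replicate 14 fell between the 1 h libraries. Its log2 change was 0.33 ± 0.18 (adjusted p = 0.462 in limma), and 0.02 ± 0.14 with the series as a term (95% interval -0.32 to 0.36). The ratio of Cry2 to Cry1 in TPM was 1.28 and 1.47 at 1 h and 0.548, 1.01 and 0.603 at 8 h. In mean per-base coverage it was 0.745 and 0.902 at 1 h and 0.323, 0.599 and 0.348 at 8 h, lower at 8 h by either measure, while which of the genes was higher at 1 h depended on the measure.

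Ciart (ENSMUSG00000038550, chromosome 3, 95878503 to 95882251, minus strand), the repressor whose promoter held 3 E-boxes, had the lowest ratio of 8 h to 1 h among the members. Its TPM was 12.5 and 10.3 at 1 h and 2.42, 6.43 and 2.76 at 8 h. The groups did not overlap, but the libraries at 8 h were far apart from each other, with replicate 14 about midway between the 1 h group and the other 8 h libraries. The mean was 2.94-fold lower at 8 h, and replicate 14 alone was 1.77-fold below the 1 h mean. The log2 change was -1.43 ± 0.36 (95% interval -2.30 to -0.56, adjusted p = 0.300 in limma), and -0.73 ± 0.19 with the series as a term (adjusted p = 0.377).

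The threshold of the test was passed by 0 of 9 members and by 6 of 13870 genes (0.0433%). All members except Cry1 (8 of 9) had an unadjusted p under 0.05, against 12.3% of all genes. The 3 of 3 activators that were higher in every 8 h library stand beside 23.7% of all genes, and the 5 of 6 repressors that were lower in every 8 h library beside 9.43%. The median log2 change was 0.69 over the activators, -0.77 over the repressors and 0.10 over all genes tested. Scaling the libraries by median ratios shifted the median of all genes by -0.11 and changed the direction of no member. With 2 against 3 libraries the smallest p of a two-sided exact permutation test is 0.2.

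**Figure D3:**
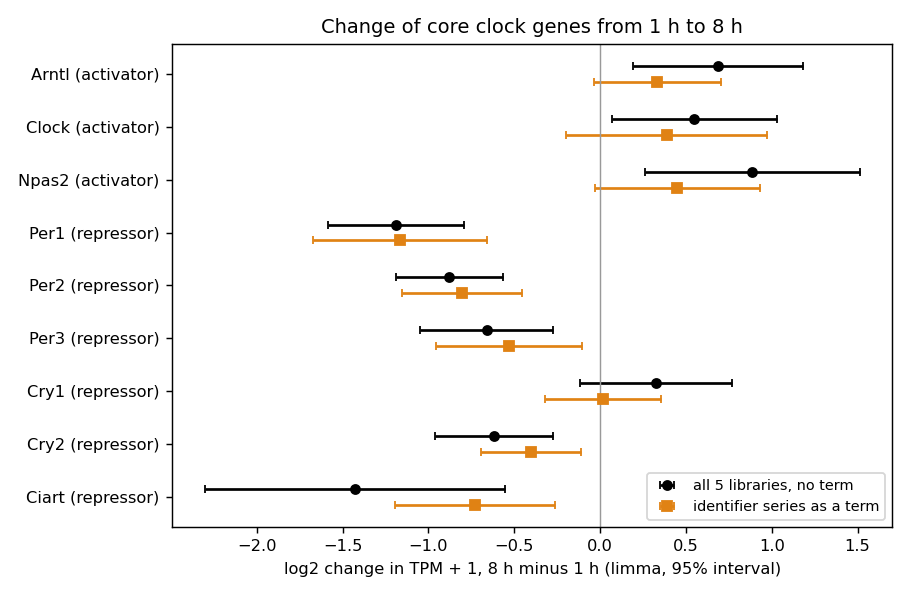
Log2 change in TPM + 1 from 1 h to 8 h (horizontal axis) of each member (vertical axis), with 95% intervals from limma. Black circles are the fit on all 5 libraries and orange squares the fit with the identifier series as a term. Per1 is at -1.19 and -1.17 in the fits, whereas Ciart is at -1.43 and -0.73 and Arntl at 0.69 and 0.33.

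The members stood differently by time and by series. With the series as a term, 5 of 9 members had an unadjusted p under 0.05, against 9.06% of all genes, and all 5 were repressors (Per1, Per2, Per3, Cry2 and Ciart). The 3 activators did not reach that p in this fit, with 95% intervals from -0.04 to 0.70 for Arntl, -0.20 to 0.98 for Clock and -0.03 to 0.93 for Npas2. The difference of series 2 from series 1 at 8 h was -0.03 ± 0.21 for Per1 and -0.11 ± 0.14 for Per2 on the log2 scale, so that 8 h libraries of both series had about the same level. It was 0.53 ± 0.15 for Arntl (adjusted p = 0.0862), 0.65 ± 0.19 for Npas2 (adjusted p = 0.0990) and 0.46 ± 0.14 for Cry1 (adjusted p = 0.0979), all higher in series 2. Ciart was lower in series 2 by a log2 difference of -1.05 ± 0.19 (adjusted p = 0.0293 in limma), the 1 of 9 members that passed the threshold for series, against 4.02% of all genes. This difference rests on 8 h replicate 14 as the lone 8 h library of series 1. Its own spread cannot be seen, and it is assumed to vary like the 1 h libraries and 8 h replicates 13 and 15. For 9 of 9 members, 8 h replicate 14 lay between the 1 h mean and the mean of 8 h replicates 13 and 15, against 40.2% of all genes. These shares are not like for like, since the share of all genes includes many whose groups overlapped. For every member except Cry1 the groups did not overlap, which already puts replicate 14 on the 8 h side of the 1 h mean. Near ties are counted here. For Per1, 8 h replicate 14 stood at 16.4 TPM, beside a mean of 16.2 TPM in replicates 13 and 15. For Cry1 replicate 14 stood at 23.8 TPM, beside a 1 h mean of 23.6 TPM.

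**Figure D4:**
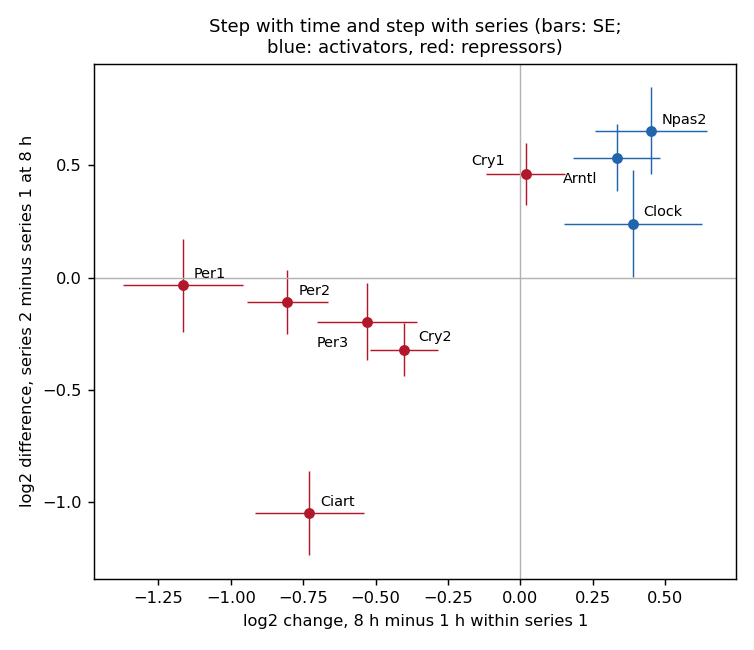
Log2 change from 1 h to 8 h within series 1 (horizontal axis) against the log2 difference of series 2 from series 1 at 8 h (vertical axis) for each member, from the limma fit with both terms (bars: SE), activators in blue and repressors in red. Per1 and Per2 lie far left near a series difference of 0, Ciart lies low on both axes, and Cry1 lies near 0 for time and at 0.46 for series.

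Without 8 h replicate 14, 8 of 9 members had an adjusted p of at most 0.05 in limma, against 20.0% of the 13901 genes tested there. The full threshold was passed by 3 of 9 members, against 4.12% of all genes (573), namely Npas2 (log2 change 1.10), Per1 (-1.20) and Ciart (-1.78). Clock was the member that did not (adjusted p = 0.0715). In that comparison every 1 h library belonged to series 1 and every 8 h library to series 2, so time and series cannot be told apart there.

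Within each library the balance of the limbs shifted. The activators summed to 58.8 and 44.1 TPM at 1 h and to 90.0, 66.3 and 89.1 TPM at 8 h. The repressors summed to 130 and 129 TPM at 1 h and to 87.6, 84.7 and 79.7 TPM at 8 h. The repressor sum was therefore lower in the 8 h libraries of both series by a like amount. The activator sum of 8 h replicate 14 lay between those of the other 8 h libraries and the 1 h libraries. The like amount held for the sum and not for each repressor. In 8 h replicate 14 Cry1 (23.8 TPM) was lower than in replicates 13 and 15 (34.4 and 32.0 TPM). Cry2 (24.1 TPM, against 18.9 and 19.3 TPM) and Ciart (6.43 TPM, against 2.42 and 2.76 TPM) were higher in replicate 14. So were Per2 and Per3, while Per1 lay between. The ratio of the activator sum to the repressor sum was 0.451 and 0.342 at 1 h and 1.03, 0.782 and 1.12 at 8 h.

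The ratio of Arntl to each of the 6 repressors was higher in every 8 h library than in either 1 h library. The ratio of Arntl to Per1 was 0.808 and 0.614 at 1 h and 2.72, 2.07 and 3.55 at 8 h, so that in TPM Per1 exceeded Arntl in both 1 h libraries and Arntl exceeded Per1 in all 3 at 8 h. In mean per-base coverage, the other measure of the tables, the same ratio was 1.39 and 1.02 at 1 h and 4.30, 3.34 and 5.74 at 8 h, so it was higher at 8 h there too but above 1 in every library. The ratio of Arntl to Per2 was 1.58 and 1.30 at 1 h and 5.15, 3.31 and 5.36 at 8 h. The ratio of Arntl to Ciart was 2.36 and 2.37 at 1 h and 21.2, 5.28 and 17.4 at 8 h. It spanned the widest range of the 6 repressors, and the value of 8 h replicate 14 was closer to those at 1 h. The ratio of Arntl to Cry1 moved least, from 1.17 and 1.10 at 1 h to 1.49, 1.43 and 1.50 at 8 h, yet it did not overlap between the groups. Within the activators, the ratio of Arntl to Clock overlapped between the groups (1.06 and 1.33 at 1 h, 1.50, 1.14 and 1.31 at 8 h).

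**Figure D5:**
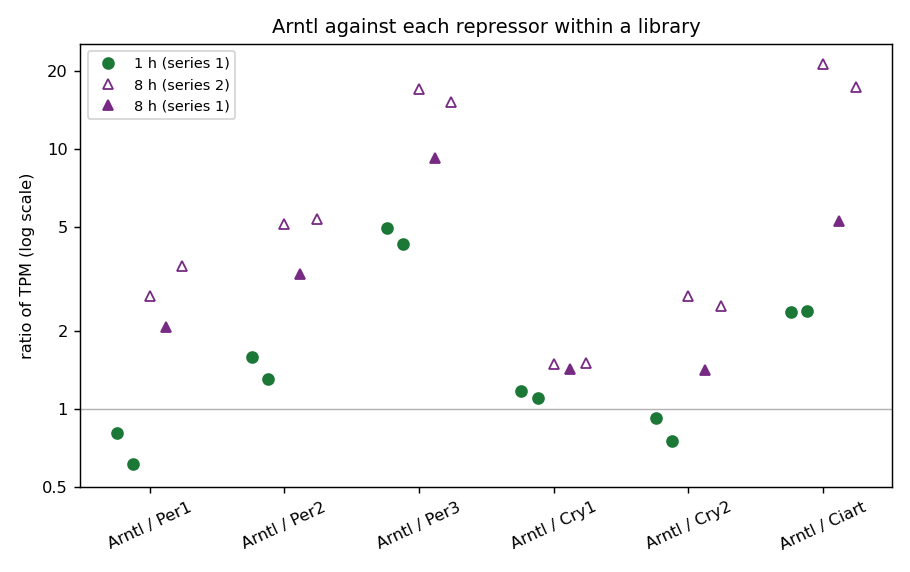
Ratio of Arntl TPM to the TPM of each repressor (horizontal axis) within each library, on a log scale (vertical axis). Green circles are the 1 h libraries and purple triangles those at 8 h, open for series 2. All 8 h ratios lie above both 1 h ratios for each of the 6 repressors, and the ratio to Per1 in TPM goes from under 1 at 1 h to at least 2.07 at 8 h (in coverage from 1.02 and 1.39 to at least 3.34).

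The order of the levels in TPM, which corrects for gene length, differed between the times. At 1 h Per1 was the highest member (38.0 ± 2.29 TPM, SD, n = 2), followed by Cry2 (32.2 ± 0.329 TPM). Arntl, Cry1, Clock and Per2 came next, and each neighbour in this order overlapped the following one. Ciart (11.4 ± 1.57 TPM), Per3 (5.78 ± 0.210 TPM) and Npas2 (1.54 ± 0.143 TPM) were lower, with no overlap between neighbours. At 8 h Arntl was the highest (44.4 ± 9.24 TPM, n = 3), and Arntl, Clock, Cry1 and Cry2 each overlapped the next. Per1 (16.3 ± 2.69 TPM) and Per2 (9.73 ± 0.699 TPM) followed without overlap, and Ciart, Npas2 and Per3, with means of 3.87, 3.79 and 3.30 TPM, overlapped each other.

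This order holds for TPM and not for mean per-base coverage, since the members differed in how far the measures went together. Coverage brought to the TPM scale was 100.0% of the TPM of Arntl and Cry1 in every library, 85.5% for Per2, 58.0% to 63.4% for Per1, 57.7% to 61.3% for Cry2 and 56.0% to 61.4% for Per3. It was 46.3% to 50.2% for Clock, 42.7% to 60.0% for Ciart and 3.78% to 5.52% for Npas2. On that scale Arntl had 29.4 and 24.3 at 1 h, above Per1 (21.1 and 23.9) and Cry2 (18.7 and 19.9) in both libraries. Between the times, 8 of 9 members had groups that did not overlap in coverage, against 34.1% of all genes, and 8 of 9 in TPM.

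The genes outside the group whose pattern over the 5 libraries was most like that of Per1 and of Arntl were found by the root mean square difference of centred log2(TPM + 1), among 11092 genes (a mean of at least 5 TPM, and the members). Nearest to Per1 were Id1, an inhibitor of bHLH factors (difference 0.182), Nedd9, a scaffold of focal adhesions (0.220), Srsf5, a splicing factor (0.233), and Arvcf, a catenin of cell junctions (0.243). The TPM of Id1 was 67.7 and 67.6 at 1 h and 32.5, 36.5 and 32.1 at 8 h. Among the members, Per2 ranked 2 of 11092 in likeness to Per1 (0.187), Per3 ranked 37, Cry2 ranked 46 and Ciart ranked 287. Nearest to Arntl were Apln, which encodes the peptide ligand apelin (0.0440), Camkk2, a calcium-dependent kinase (0.0457), Cklf, a chemokine-like factor (0.0505), and Rad50, a DNA repair protein (0.0624). Npas2 ranked 88 in likeness to Arntl, Clock ranked 401 and Cry1 ranked 532. Cry1, a repressor by role, thus stood nearer to Arntl than to Per1, where it ranked 8804. These ranks are a description over 5 libraries.

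The side loops and the turnover of PER and CRY were read from gene lists named by role. Of 11 side-loop genes, 10 were tested and 0 passed the threshold, 6 were lower in every 8 h library (Nr1d1, Nr1d2, Rora, Tef, Hlf and Bhlhe41) and 0 higher, against the 9.43% and 23.7% of all genes above. Their median log2 change was -0.29, beside 0.10 over all genes. Fitted together with the series, this median was -0.15, beside 0.01 over all genes. There Dbp (0.15) and Nfil3 (0.29) had positive log2 changes, and the other tested genes of the list negative ones. The groups overlapped for Dbp, with a TPM of 19.9 and 20.2 at 1 h and of 5.69, 22.3 and 5.02 at 8 h. Dbp was lower in 8 h replicates 13 and 15 and not in replicate 14. Nr1d2, which encodes REV-ERB beta, had a TPM of 41.4 and 35.6 at 1 h and of 14.9, 28.2 and 17.2 at 8 h (log2 change -0.95 ± 0.27, adjusted p = 0.322 in limma). Nr1d1, which encodes REV-ERB alpha, the repressor of Arntl, had a TPM of 45.2 and 47.5 at 1 h and of 19.6, 42.9 and 17.0 at 8 h (-0.90 ± 0.38, adjusted p = 0.404 in limma). Its 8 h replicate 14 was close to the 1 h libraries, and with the series as a term its log2 change was -0.11. Tef, a D-box activator, had a TPM of 71.6 and 66.7 at 1 h and of 45.3, 52.7 and 43.8 at 8 h (-0.54 ± 0.12, adjusted p = 0.283 in limma). Of 11 genes for the phosphorylation and turnover of PER and CRY, all were tested, 0 passed and 2 were lower in every 8 h library (Gsk3b and Fbxl21), with a median log2 change of 0.04.

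Markers of other cell types also moved between the libraries, and their part in the members' values was not tested. The 5 neuron markers summed to 68.3 and 68.1 TPM at 1 h and 43.2 to 62.4 TPM at 8 h, and 1 of 5 (Tubb3) had an unadjusted p under 0.05 in limma (log2 change -0.76). The 4 oligodendrocyte markers summed to 164 and 115 TPM at 1 h and 35.5 to 113 TPM at 8 h, and the 3 ependymal markers to 23.0 and 27.4 TPM and 16.0 to 18.5 TPM, mostly from Foxj1. In these lists Mbp and Foxj1 had an unadjusted p under 0.05 in limma (log2 change -1.30 and -0.61). The 5 astrocyte markers overlapped (164 and 201 TPM at 1 h, 168 to 378 TPM at 8 h), and none of these 4 lists had a member that passed the threshold. Top2a, a marker of dividing cells, had a TPM of 156 and 161 at 1 h and of 324, 147 and 376 at 8 h, higher in series 2. The astrocyte marker Gfap was also higher in series 2 (4.35 and 4.15 TPM at 1 h, 26.0, 1.81 and 47.2 TPM at 8 h). Tubb3 was lower there (39.8 and 42.9 TPM at 1 h, 19.0, 37.4 and 19.3 TPM at 8 h). The astrocyte marker S100b did not divide by series (5.44 and 5.53 TPM at 1 h, 4.72, 5.73 and 6.37 TPM at 8 h). The microglial genes Tmem119 and Aif1 and the endothelial genes Cldn5 and Cdh5 were at 0 TPM in every library, and P2ry12 was at most 1.41 TPM.

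The deposited count table gave a different picture for the members it holds. It lists 7599 genes, among them 6 members (Cry1, Per1, Npas2, Per3, Clock and Ciart), and its columns summed to 13988166 to 18572154 counts. Its 8 h columns did not match the TPM tables of the same name. Over 7190 genes, the column named 8 h replicate 13 lay within 0.1 log2 of its own table for 25.1% and of the table of replicate 14 for 78.6%, and the column named replicate 15 matched its own table for 41.3% and that of replicate 13 for 78.7%. The column named replicate 14 matched none closely (at most 39.8%, with 1 h replicate 2). Counts are therefore given under the names of their columns. The column that matched 8 h replicate 14 for 78.6% carries an identifier of series 2, while the label of that library places it in series 1. All results with the series as a term thus rest on the labels.

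In this table Per1 had 1679 and 2292 counts (120 and 139 CPM, counts scaled to the same column total) at 1 h, and 1038, 2112 and 1099 counts (57.6, 146 and 59.2 CPM) in the columns named 8 h replicates 13, 14 and 15. The column named replicate 14 was thus the highest of all 5. It was also the highest for Per3 (29.2 CPM, against 24.7 and 24.3 CPM at 1 h) and for Ciart (15.0 CPM, against 12.9 and 11.1 CPM at 1 h). All 6 members overlapped between the groups, beside 18.7% of all genes in the table that did not. Of the members, 0 of 6 had an unadjusted p under 0.05 in edgeR, against 2.62% of all genes in the table. The log2 change of Per1 was -0.60 (adjusted p = 0.966 in edgeR), and -1.16 without that column (adjusted p = 0.383). Without it 4 of 6 members did not overlap (Per1, Npas2, Per3 and Ciart), against 39.4% of all genes in the table, with Npas2 higher and the others lower at 8 h. The same 4 had an unadjusted p under 0.05 in edgeR, against 6.3% of all genes, and 0 of 6 passed an adjusted p of 0.05.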

How the data were processed

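RNA was sequenced for the authors at a national genomics facility in 5 libraries of SVZ cells (stranded, poly-A selected, paired reads). Reads were converted with bcl2fastq 2.19.1.403, per the labels. Reads were aligned to GRCm38 with STAR through nf-core/rnaseq and counted with featureCounts. Whole read counts without normalization were deposited for 7599 genes, after a filter that the sources do not describe. The authors also deposited, for each library, a gene table with TPM, FPKM and mean per-base coverage. The tool behind these tables was not stated in the sources used here. In the deposited tables, FPKM is scaled by gene length and depth, whereas coverage is a mean per base and is not scaled for depth. FPKM was used only with coverage, as the depth factor of a library (5.58 to 7.18). Gene symbols and coordinates are those of the tables. They were identical to GENCODE vM21 for 7 of 9 members.

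TPM was summed per gene ID (15 to 20 extra rows per table). Genes with a mean of at least 1 TPM were tested on log2(TPM + 1) with limma 3.58.1 (intensity trend, R 4.3.3), with Benjamini-Hochberg adjustment over all genes. The pseudocount understates changes of low genes. A gene was called when its absolute log2 change exceeded 1 at an adjusted p of 0.05 or less. Counts were tested with edgeR 4.0.16 (quasi-likelihood, TMM, filterByExpr), and with DESeq2 1.42.0 as an alternative. CPM is the count scaled to the column total. Other alternatives were a pseudocount of 0.1, no filter, no fold threshold, median-ratio (RLE) scaling, the series as a term, series 1 alone, coverage in place of TPM (chosen after seeing the data), and leaving out each library. The tests were checked on simulated data.

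Groups and replicate numbers came from the labels. No column of values was left unassigned (0), and 0 rows had no gene name. The genes named are all 9 members, the 4 genes nearest in pattern to Per1 and to Arntl, and up to 3 other pathway genes in each direction with the largest change among those whose groups do not overlap, of which 1 is not reported here. The members and lists were chosen with earlier results of these data known. Dbp, Nfil3 and the other genes named in counts or as markers were chosen after their values were seen. The labels call the libraries biological replicates, and p-values measure the spread between these libraries. Promoter sequences are from RefSeq (GRCm38.p6).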

Additional observations from a re-analysis of the deposited data

How the results depend on the processing

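The number of genes called from TPM was 6 in the test as reported. No filter on low TPM gave 0 (limma, 2371 genes at an unadjusted p under 0.05), and a term for the series gave 19. Leaving out 1 h replicate 1, 1 h replicate 2 or 8 h replicate 15 gave 0 each (limma, 767, 668 and 850 genes at an unadjusted p under 0.05), leaving out 8 h replicate 13 gave 1, and leaving out 8 h replicate 14 gave 573. Between 4 and 8 genes were called under the other alternatives. The cause was not tested. Of 98 recomputed TPM values of members, 95 kept their direction and side of the threshold, and 3 passed it without 8 h replicate 14 (Npas2 1.10, Per1 -1.20 and Ciart -1.78). Npas2 could not be tested on coverage, where its mean was below 1.

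From the counts, edgeR and DESeq2 called 0 genes under every alternative run (199 genes at an unadjusted p under 0.05 in edgeR and 227 in DESeq2). Of 48 recomputed values of members, 46 kept direction and side of the threshold. Clock, at 0.017 with all columns, ranged from -0.12 (without 1 h replicate 2) to 0.17 (without 1 h replicate 1) and was at -0.021 without the column named 8 h replicate 13. No paired analysis was possible because the groups share no replicate number. The precision is limited by 2 and 3 libraries and, for Npas2, by its low level.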
